A study of Mus musculus with 6 samples.

Results

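Signalling genes of the cortical hem and medial pallium were examined in bulk RNA-Seq of mouse lateral cortex at embryonic day 12.5. The 9 genes are Wnt2b, Wnt5a, Wnt8b, Rspo1, Rspo2, Rspo3, Lmx1a, Bmp4 and Bmp7, out of 17068 genes in the deposited count table. They were chosen by name with their counts in these same 6 libraries already known, so their levels and group differences are given as a description and carry no test. The 4 Control libraries came from Cre-negative female embryos of the c57/bl6 strain. Controls 1, 2 and 4 carried 1 floxed allele of the transcription factor gene Foxp1 (Foxp1 fl/+), and control 3 carried it on both chromosomes (Foxp1 fl/fl). Because control 3 was the only Control embryo of its genotype, genotype and library cannot be told apart there. The 2 libraries labelled Foxp1cKO came from female c57/bl6 embryos of the genotype Foxp1 fl/fl;Emx1Cre, in which the Emx1 promoter drives Cre in progenitors of the dorsal telencephalon. Of the controls, only control 3 had the same floxed alleles as these 2 libraries. Every group difference below therefore mixes Cre with the number of floxed alleles. The study used littermates as controls, but the labels name no litters.

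The cortical hem is a strip of neuroepithelium at the medial edge of the developing cortex, between the future hippocampus and the choroid plexus. It secretes Wnt and BMP proteins, instructs the formation of the hippocampus and is one of the sources of Cajal-Retzius neurons. Wnt ligands bind Frizzled receptors with the co-receptors Lrp5 and Lrp6, R-spondins raise the response to Wnt by keeping the E3 ligases Znrf3 and Rnf43 from removing those receptors, and BMP ligands act through receptor kinases on Smad proteins. The hem lies medial to the presumptive somatosensory area that was dissected here.

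Wnt8b and Rspo1 varied most among the controls, by 158-fold and 47.4-fold between the highest and the lowest Control library. Both were highest in control 2 and lowest in control 3. The 250 bases upstream of the RefSeq start of these genes (GRCm38.p6) are shown for that reason, both from the plus strand, Wnt8b at chr19:44493222-44493471 and Rspo1 at chr4:124986180-124986429. Capitals mark each match, on either strand, to CTTTG (the core of LEF/TCF sites, through which Wnt signals reach genes), TAAT (the core of homeodomain sites, the class of factor to which Lmx1a belongs), TGTTTA (a forkhead core, the class of Foxp1) or ACGTG (the core of HIF sites).
Wnt8b: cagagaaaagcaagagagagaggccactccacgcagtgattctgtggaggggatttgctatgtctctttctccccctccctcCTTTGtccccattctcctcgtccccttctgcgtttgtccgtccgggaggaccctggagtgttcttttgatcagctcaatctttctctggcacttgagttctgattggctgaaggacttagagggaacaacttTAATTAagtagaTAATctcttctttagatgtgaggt
Rspo1: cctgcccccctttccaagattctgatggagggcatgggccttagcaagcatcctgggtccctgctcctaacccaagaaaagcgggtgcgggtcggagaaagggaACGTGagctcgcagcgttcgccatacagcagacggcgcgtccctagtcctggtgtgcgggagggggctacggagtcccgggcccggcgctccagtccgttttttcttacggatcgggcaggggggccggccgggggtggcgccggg
The Wnt8b window held CTTTG beginning 168 bases before the start, and TAAT or its reverse complement ATTA beginning 36, 34 and 24 bases before it, the first pair overlapping. The Rspo1 window held ACGTG, 146 bases before the start, and neither of those motifs. TGTTTA was in neither window. Of 32851 promoter windows of the same length, 48.6% held CTTTG, 54.9% TAAT, 12.0% TGTTTA and 16.6% ACGTG on either strand, so Wnt8b and Rspo1 each held motifs that many promoters hold. Entries were present for 5 of the 9 genes. Those for Lmx1a and Bmp4 each held 1 homeodomain core, that for Bmp4 also held ACGTG and its reverse complement CACGT, overlapping at 187 and 188 bases before the start, and that for Wnt2b held none of the 4 motifs. No entry was present for Wnt5a, Rspo2, Rspo3 and Bmp7.

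Libraries held 50076008 to 78346979 counts, so that 3 counts, used as a detection floor, correspond to 0.0381 to 0.0596 CPM (counts scaled to library size by edgeR with TMM factors); this floor covers counting error only. The first principal component of the deposited log2-like values held 40% of the variance, with control 3 and control 4 at its ends, and the second held 32.5%, with both libraries labelled Foxp1cKO below all controls. Foxp1 had 59.7, 60.8, 71.2 and 79.1 CPM in controls 1 to 4, and 83.2 and 76.8 CPM in the libraries labelled Foxp1cKO 1 and 2. It was not lower there, and since these counts do not resolve the floxed exons, every direction below rests on the labels. In RNA from whole tissue, fewer cells of a type and less RNA per cell cannot be told apart.

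In 6 of the 9 genes the standard deviation (SD) over the controls exceeded 1 on the log2 CPM scale, which was so for 2.37% of all genes. The median SD over the controls was 1.11 for the 9 genes, 0.20 for all genes and 0.33 for the 6221 genes in the same range of abundance. Compared with this, the difference between group means exceeded the Control SD in 3 of the 9, Wnt2b, Wnt5a and Rspo2, all lower in the libraries labelled Foxp1cKO; 45.5% of all genes had a difference above their Control SD. In 0 of the 9 did the difference exceed the whole range of the controls, against 16.8% of all genes. Per kilobase of exon, the mean Control level fell from Rspo3, at 4.09 CPM per kb, over Bmp7 (2.06), Wnt5a (1.1), Wnt8b (0.947), Rspo1 (0.767), Bmp4 (0.470), Lmx1a (0.345) and Rspo2 (0.184) to Wnt2b, at 0.0884 CPM per kb. Each gene's Control range overlapped that of the next in this order.

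**Figure D1:**
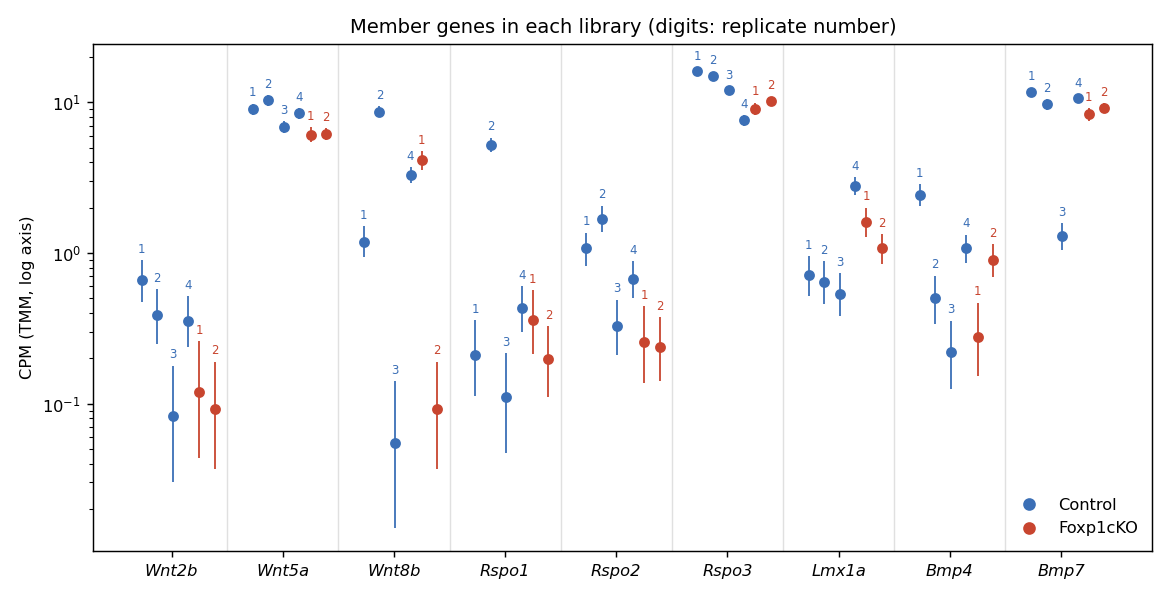
Level of each of the 9 genes in each library, in CPM on a log axis, with bars for the 95% Poisson interval of the count (counting error only). Blue points are the 4 Control libraries and red points the 2 libraries labelled Foxp1cKO, and digits give the replicate number. Wnt8b ran from 0.0549 to 8.66 CPM in the controls, while Wnt5a stayed between 6.85 and 10.3 CPM.

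Of the Wnt ligands, Wnt5a was the most even. Wnt5a, a ligand known mainly for signalling without beta-catenin (ENSMUSG00000021994.15, chromosome 14, 28504750 to 28527448, plus strand), had 8.99, 10.3, 6.85 and 8.42 CPM in controls 1 to 4, and 6.08 and 6.16 CPM in the libraries labelled Foxp1cKO. Both of the latter lay below every control. The difference of mean log2 CPM was -0.48, which is 1.97 times the Control SD of 0.24, and edgeR's log2 fold change was -0.50 (standard error 0.190). Leaving out any 1 library kept this fold change between -0.61 and -0.40, while the ratio to the Control SD lay between 1.56 and 2.01 except without control 3, where the SD was 0.147 and the ratio 4.00. An antisense gene, Gm2670, shares 358 bases of exon with Wnt5a on the other strand, and the strand setting of the counting is not given in the sources used here, so a part of the Wnt5a count is uncertain.

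Wnt2b, a canonical Wnt ligand of the hem (ENSMUSG00000027840.5, chromosome 3, 104945272 to 104961921, minus strand), was the scarcest of the 9 genes. It had 0.662, 0.386, 0.0823 and 0.356 CPM in controls 1 to 4, and 0.119 and 0.0923 CPM in the libraries labelled Foxp1cKO. Control 3, with 6 counts, was the lowest of all 6 libraries, so the groups overlapped through that library alone. The log2 fold change was -1.80 (standard error 0.804) and the difference of means was 1.17 times the Control SD of 1.11. That ratio was 3.99 without control 3, and 0.902, 0.897 and 0.915 without control 1, 2 or 4, so the place of Wnt2b among the genes with a difference above their Control SD rests on each of these 3 controls. The 2 libraries labelled Foxp1cKO held 6 and 7 counts, with 95% Poisson intervals of 0.0438 to 0.260 CPM and 0.0371 to 0.190 CPM.

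Wnt8b, a canonical Wnt gene whose cortical expression marks the hem and the medial wall (ENSMUSG00000036961.4, chromosome 19, 44493472 to 44514273, plus strand), had 1.19, 8.66, 0.0549 and 3.28 CPM in controls 1 to 4. Control 3 held 4 counts of Wnt8b and control 2 held 538. The libraries labelled Foxp1cKO were 44.6-fold apart, at 4.11 CPM (207 counts) and 0.0923 CPM (7 counts). Each group thus had a library near the floor and a library above 4 CPM, and the groups overlapped over most of their range. The SD over the controls, 2.88 on the log2 scale, was larger than in any of the other 8 genes, and the difference of means was 0.308 of it. Without control 3 the SD was 1.41 and the ratio 1.56, and without the library labelled Foxp1cKO 1 the ratio was 1.19. The log2 fold change of -0.67 (standard error 1.64) became -5.13 without the library labelled Foxp1cKO 1 and 0.46 without control 2. Counting error does not span these gaps: the 95% Poisson interval was 0.0150 to 0.141 CPM in control 3 and 7.94 to 9.42 CPM in control 2.

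R-spondins differed from each other both in level and in evenness. Rspo1 (ENSMUSG00000028871.7, chromosome 4, 124986430 to 125009099, plus strand) had 0.210, 5.20, 0.110 and 0.432 CPM in controls 1 to 4, and 0.358 and 0.198 CPM in the libraries labelled Foxp1cKO. Control 2 alone was above 1 CPM, with 323 counts against 8 to 34 in the other 5 libraries, and both libraries labelled Foxp1cKO lay between control 3 and control 4. The difference of mean log2 CPM was -0.84, which is 0.366 of the Control SD of 2.31, and this SD became 0.864 without control 2. From edgeR, the log2 fold change was -2.43 (standard error 1.67) with all libraries and 0.11 without control 2. The fold change of Rspo1 therefore rests on control 2.

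Rspo2 (ENSMUSG00000051920.7, chromosome 15, 43020794 to 43170826, minus strand) had 1.07, 1.69, 0.329 and 0.673 CPM in controls 1 to 4, and 0.258 and 0.237 CPM in the libraries labelled Foxp1cKO. Both of these lay below every control, though only just below control 3, and their Poisson intervals overlapped that of control 3. The log2 fold change was -1.91 (standard error 0.676), between -2.21 and -1.47 without any 1 library, and the difference of means was 1.64 times the Control SD of 0.96.

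Rspo3 (ENSMUSG00000019880.10, chromosome 10, 29452416 to 29535867, minus strand), the most abundant of the 9 per length, had 16.1, 14.9, 12.0 and 7.57 CPM in controls 1 to 4, and 9.04 and 10.1 CPM in the libraries labelled Foxp1cKO. Here control 4 was the lowest library, and the groups overlapped through it. The difference of means was 0.702 of the Control SD of 0.49, and 2.57 times the SD when control 4 was left out. The log2 fold change was -0.40 (standard error 0.295). Rspo3 shares 404 bases of exon with Gm48159 on the other strand, so its count carries the same uncertainty as that of Wnt5a.

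Lmx1a, a LIM homeodomain factor needed to form the hem and roof plate (ENSMUSG00000026686.14, chromosome 1, 167689237 to 167848741, plus strand), had a positive log2 fold change, unlike the Wnt ligands and R-spondins. It had 0.710, 0.644, 0.535 and 2.79 CPM in controls 1 to 4, and 1.61 and 1.07 CPM in the libraries labelled Foxp1cKO. Control 4 was the highest of all libraries, and the other 3 controls were the lowest. The Control SD of 1.07 became 0.198 without control 4, and the log2 fold change moved from 0.18 (standard error 0.708) to 1.08. Leaving out control 1, control 2, control 3 or the library labelled Foxp1cKO 1 turned its sign, to -0.14 in the last case.

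The BMP ligands were lowest in control 3. Bmp7 (ENSMUSG00000008999.7, chromosome 2, 172868012 to 172940321, minus strand), which is expressed in the hem, choroid plexus and meninges, had 11.6, 9.69, 1.29 and 10.6 CPM in controls 1 to 4, and 8.29 and 9.14 CPM in the libraries labelled Foxp1cKO. Control 3 stood apart from the other 5 libraries, which lay within 8.29 to 11.6 CPM. The Control SD of 1.51 became 0.132 without control 3, and the log2 fold change moved from 0.07 (standard error 0.706) to -0.30. The difference of means was then 2.15 times the Control SD, against 0.311 with all controls.

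Bmp4, a main BMP ligand of the dorsal midline (ENSMUSG00000021835.15, chromosome 14, 46383520 to 46390669, minus strand), had 2.44, 0.499, 0.220 and 1.07 CPM in controls 1 to 4, and 0.278 and 0.896 CPM in the libraries labelled Foxp1cKO. Both of these lay inside the Control range. The difference of means was 0.376 of the Control SD of 1.42. The log2 fold change of -0.81 (standard error 0.937) became -0.01 without control 1 and -1.93 without the library labelled Foxp1cKO 2. Bmp4 shares 89 bases of exon with Gm15217 on the other strand.

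**Figure D2:**
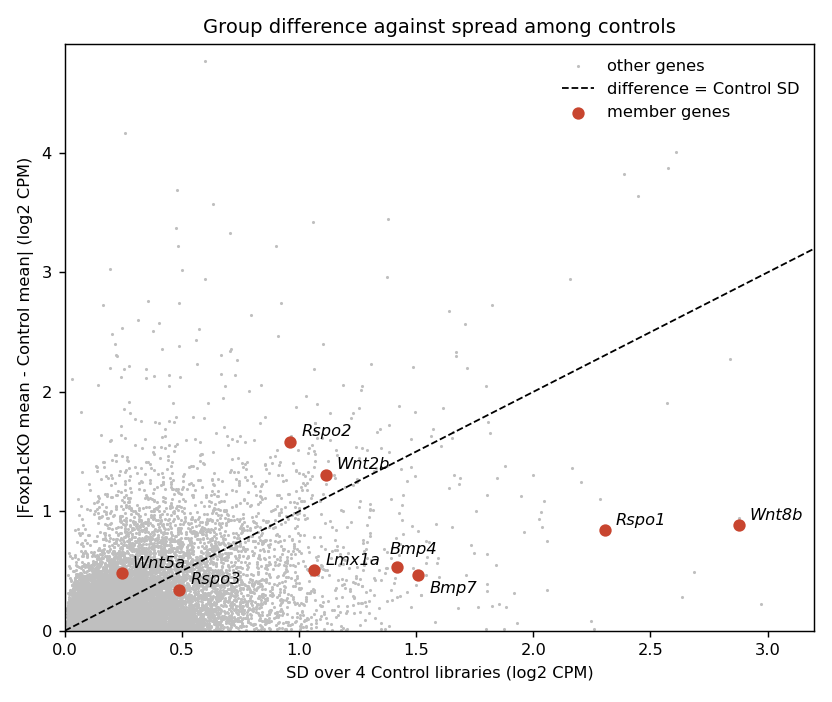
Difference between the group means against the SD over the 4 Control libraries, both in log2 CPM, for the 9 genes (red) and all other genes (grey). The dashed line marks a difference equal to the Control SD: Wnt2b, Wnt5a and Rspo2 lie above it, and Wnt8b lies farthest to the right at an SD of 2.88.

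Over the 9 genes, 7 had a negative and 2 a positive log2 fold change, with a median of -0.67 against -0.0044 over all genes. None of the 9 passed an adjusted p-value under 0.05 in edgeR's quasi-likelihood test over all genes, which 0.152% of genes did. At an unadjusted p-value under 0.05, 2 of the 9 were found by edgeR, Wnt5a and Rspo2, beside 13% of all genes. None passed the adjusted threshold in DESeq2, which called 2.97% of all genes and gave no adjusted p-value for Wnt2b and Rspo1, or in limma, which called 0.158%. Both libraries labelled Foxp1cKO lay below all controls in 2 of the 9, Wnt5a and Rspo2, as in 13.1% of all genes, and above all controls in 0 of the 9, as in 11.5% of all genes. Since these genes were selected on the same contrast, nothing is read from those counts.

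The libraries were not high or low for all 9 genes alike. Control 1 was the highest for Wnt2b, Rspo3, Bmp4 and Bmp7, control 2 for Wnt5a, Wnt8b, Rspo1 and Rspo2, and control 4 for Lmx1a. Over all genes, control 1 was the highest for 13%, control 2 for 10.3% and control 4 for 24.5%. Control 3 was the lowest library for 6 of the 9, Wnt2b, Wnt8b, Rspo1, Lmx1a, Bmp4 and Bmp7, and it was the lowest for 22.3% of all genes. The mean log2 CPM of the 9 genes was 1.05, 1.56, -0.79 and 1.08 in controls 1 to 4, and 0.45 and -0.10 in the libraries labelled Foxp1cKO, so both of these lay between control 3 and the other controls. Wnt8b and Bmp4, the least alike pair by the measure below, ran opposite in both libraries labelled Foxp1cKO. The library labelled Foxp1cKO 1 was the second highest for Wnt8b and the second lowest for Bmp4. Foxp1cKO 2 was second lowest for Wnt8b and above control 2 for Bmp4. The most alike pairs, by the root mean square (RMS) difference of their centred log2 CPM over the 6 libraries, were Wnt5a with Rspo3 (0.334) and Wnt2b with Rspo2 (0.485). The least alike were Wnt8b and Bmp4 (2.66). The profiles were centred but not scaled, so this measure also follows how widely each gene varied. In control 4, for example, Wnt5a was above its mean (0.14) and Rspo3 below its own (-0.57).

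**Figure D3:**
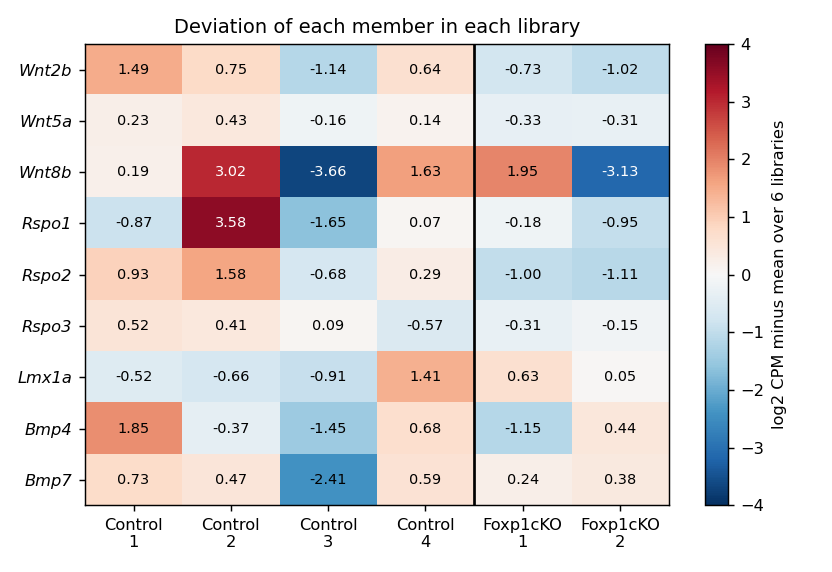
Deviation of each gene in each library from its mean over the 6 libraries, in log2 CPM, with red above and blue below the mean. Wnt8b and Rspo1 are highest in control 2, at 3.02 and 3.58, control 3 is below the mean in every row except Rspo3, and the Foxp1cKO libraries differ in sign for Wnt8b and Bmp4.

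Other hem genes were also scarce and varied by library. Of 6 listed, Wnt3a and Gdf7, 2 genes that define the hem, were not in the table, and Bmp5, Bmp6, Msx1 and Msx2 summed to 13.4, 5.25, 2.74 and 7.68 CPM in controls 1 to 4 and to 3.62 and 5.80 CPM in the libraries labelled Foxp1cKO. Msx1, a homeobox target of BMP signalling, had 7.52, 1.71, 1.1 and 4.32 CPM in controls 1 to 4, and 1.61 and 2.62 CPM in the libraries labelled Foxp1cKO. Msx2, its paralogue, was at 0.646 and 0.381 CPM in controls 1 and 4, at 0.0805 CPM in control 2 and below the floor of 3 counts in control 3 and both libraries labelled Foxp1cKO. None of the 4 passed the threshold in edgeR or DESeq2 or had an unadjusted p-value under 0.05, and their median log2 fold change was -0.76. Msx2 came nearest to that cutoff, with a log2 fold change of -3.98 (standard error 1.69, unadjusted p = 0.0506 in edgeR's quasi-likelihood test).

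Regulators of the medial pallium were more even than the hem genes, with a median Control SD of 0.56. All 10 listed were in the table, among them Lhx2, a selector that keeps cortex from becoming hem, and Emx2, Dmrt3 and Dmrta2, factors graded from medial to lateral. Their summed level was 1150 to 1340 CPM in the controls and 1120 to 1550 CPM in the libraries labelled Foxp1cKO. Control 3 was the lowest library for 6 of the 10, Emx2, Dmrt3, Dmrta2, Lhx2, Lhx9 and Lef1, and the highest for 2, Zbtb20 (250 CPM) and Nr2f1 (401 CPM). The lowest values were seen in it for Emx2 (42.4 CPM against 75.2 to 121 CPM in the other 5 libraries), Dmrt3 (7.34 CPM against 15.8 to 28.8 CPM) and Lhx2 (257 CPM against 380 to 614 CPM). None of the 10 passed the threshold in edgeR or DESeq2 or had an unadjusted p-value under 0.05 (7 higher, 3 lower, median log2 fold change 0.16). The 7 antihem and lateral genes, such as Pax6 and Sfrp2, summed to 350 to 383 CPM in the controls and 427 to 430 CPM in the libraries labelled Foxp1cKO. None of them passed, and 1 had an unadjusted p-value under 0.05. All 7 Cajal-Retzius markers had a positive log2 fold change (median 0.41), beside 49.3% of all genes (median -0.0044). They were led in level by Reln, the secreted guide of neuronal layering. None of these passed either, with 1 at an unadjusted p-value under 0.05, beside 13% of all genes.

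Markers of neighbouring tissues also varied by library, and some shared the library order of Bmp4. Meningeal markers (9 of 10 in the table, Foxc2 not) summed to 624, 217, 128 and 399 CPM in controls 1 to 4, and to 174 and 385 CPM in the libraries labelled Foxp1cKO. Col1a1, a fibroblast collagen, had 94.4, 20.7, 13.0 and 54.3 CPM in controls 1 to 4, and 16.7 and 49.9 CPM in the libraries labelled Foxp1cKO. The order of the 6 libraries for Bmp4 was control 1, control 4, Foxp1cKO 2, control 2, Foxp1cKO 1 and control 3 from high to low. That order was shared exactly by 3 of the 9 meningeal markers, Col1a1, Col1a2 and Col3a1, and not by the others. Msx1, the choroid plexus marker Aqp1 and the Wnt target Nkd2 also had it, as did 0.387% of all genes. Whether meningeal tissue had a part in the Bmp4 values was not tested. No meningeal marker had exactly the order of any of the other 8 genes, but exact order leaves out near matches. The order of Bmp7 differed from that of Col1a1 only in that control 2 lay above Foxp1cKO 2. Lum and Dcn departed from the order of Bmp4 only in that Foxp1cKO 1 lay above control 2. A part of meningeal tissue in the values of Bmp7 and the other genes was not tested either.

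Ventral telencephalic markers, all 7 in the table, summed to 165, 251, 495 and 192 CPM in controls 1 to 4 and to 361 and 247 CPM in the libraries labelled Foxp1cKO. Nkx2-1, which defines the medial ganglionic eminence, had 13.2 CPM in control 3 and 0.216 to 1.07 CPM in the other 5 libraries. Control 3 was thus the highest library for these markers and the lowest for 6 of the 9 genes, and its genotype also differed from that of the other controls; the part of either in the values was not tested. Choroid plexus markers (6 of 10 in the table) summed to 23.2 to 28.7 CPM in the controls and 21.7 to 28.1 CPM in the libraries labelled Foxp1cKO. Single genes of the list varied more than this sum, among them Clic6, at 0.096 to 2.12 CPM in the controls, and the median Control SD of the list was 0.58. The defining markers Ttr, Kcne2, Folr1 and Kl were not in the table. Endothelial markers, all 7 in the table, summed to 125 to 194 CPM in the controls and 187 and 228 CPM in the libraries labelled Foxp1cKO. Meningeal, ventral and choroid plexus markers gave 0 calls in edgeR, with 1 at an unadjusted p-value under 0.05, Foxj1 of the choroid plexus list, which passed in DESeq2. Foxj1 was lower, with 6.68 to 8.03 CPM in the controls and 4.79 and 5.15 CPM in the libraries labelled Foxp1cKO (log2 fold change -0.54). Of the endothelial markers Pecam1, an adhesion molecule of vessels, passed in DESeq2 alone (21.4 to 30.4 CPM in the controls, 35.6 and 45.7 CPM in the libraries labelled Foxp1cKO), and Flt1, a receptor for VEGF, passed the threshold in edgeR and DESeq2, with a log2 fold change of 1.64 (edgeR, Benjamini-Hochberg adjusted p = 0.0179). Neurog2, a proneural factor of cortical progenitors, had 172 to 248 CPM in the controls and 166 and 247 CPM in the libraries labelled Foxp1cKO. Neuronal markers summed to 2400 to 4400 CPM in the controls and to 3140 and 3230 CPM in the libraries labelled Foxp1cKO, with Tubb3 not in the table, and 0 of them passed in edgeR or DESeq2 or had an unadjusted p-value under 0.05.

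**Figure D4:**
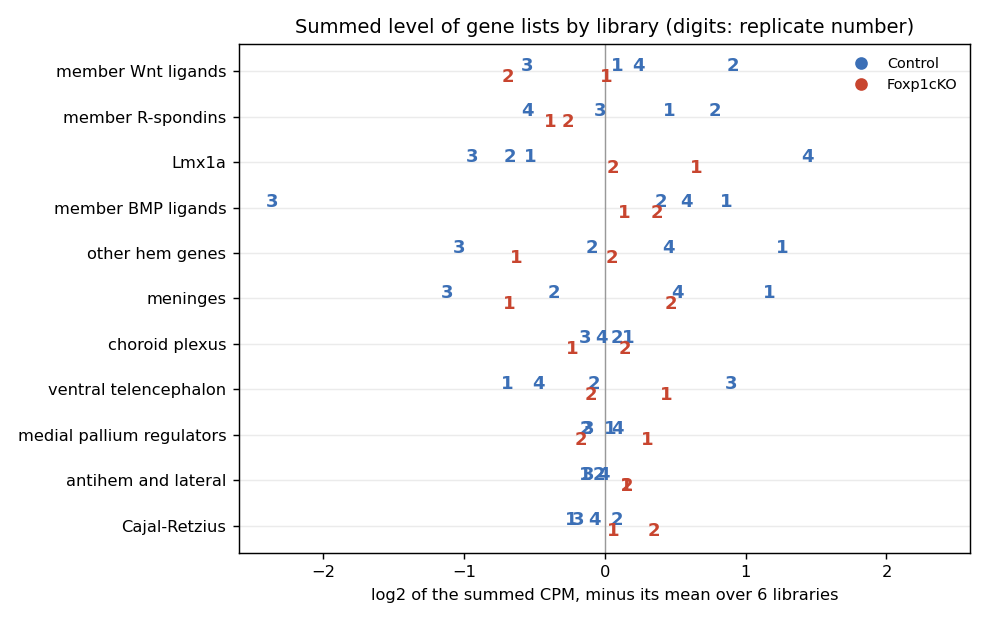
Summed CPM of gene lists in each library, on a log2 scale and centred on the mean of the 6 libraries. Digits are replicate numbers, blue for Control and red for Foxp1cKO libraries. Control 3 is far left for the BMP ligands, other hem genes and meningeal markers and far right for ventral telencephalic markers.

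Receptors of both pathways had a lower median Control SD than the 9 genes, 0.23 for Wnt and 0.18 for BMP receptors, though single receptors varied as much as some ligands (Fzd5, SD 0.998; Wnt5a, SD 0.24). All 16 Wnt receptors and co-receptors were in the table, 13 with a positive and 3 with a negative log2 fold change (median 0.15). In edgeR, 0 passed the threshold and 3 had an unadjusted p-value under 0.05, against 13% of all genes. Among them, Fzd8 had 97.1 to 118 CPM in the controls and 135 and 160 CPM in the libraries labelled Foxp1cKO, and Lrp6 had 158 to 170 CPM and 198 and 186 CPM; both passed in DESeq2 but not in edgeR. Both libraries labelled Foxp1cKO lay above all controls in 5 of the 16, beside 11.5% of all genes. Of the 6 BMP receptors, all had a positive log2 fold change (median 0.23), beside 49.3% of all genes. In edgeR, 0 of these receptors passed, with 3 at an unadjusted p-value under 0.05. In 4 of the 6, both libraries labelled Foxp1cKO lay above all controls. Bmpr1b, a type I receptor, had 31.6 to 50.5 CPM in the controls and 63.3 and 62.8 CPM in the libraries labelled Foxp1cKO, and passed in DESeq2 alone.

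The remaining parts of both pathways gave 0 genes past the threshold in edgeR, with 1 gene at an unadjusted p-value under 0.05 in each of the lists of Wnt antagonists, Wnt targets, BMP antagonists and Smads with BMP targets, and 0 in the others. Of the R-spondin receptors and E3 ligases, 5 of 6 were in the table (4 higher, 1 lower, median log2 fold change 0.22), and Rspo4 was not. Znrf3, the most abundant of them per length, had 23.7 to 41.5 CPM in the controls and 42.2 and 36.3 CPM in the libraries labelled Foxp1cKO. Other Wnt ligands (7 of 16 in the table, median 0.11) were led by Wnt7b, with 117 to 164 CPM in the controls and 111 and 132 CPM in the libraries labelled Foxp1cKO. Wnt antagonists (8 of 12, median -0.21) included Sfrp4, at 2.52 to 3.43 CPM in the controls and 1.97 and 2.21 CPM in the libraries labelled Foxp1cKO, whose order of libraries was the same as that of Wnt5a. Wnt target genes had a median of 0.12 over 11 of 12. Ccnd1, a cyclin that drives entry into the cell cycle and the most abundant of them per length, had 170, 215, 199 and 257 CPM in controls 1 to 4, and 323 and 276 CPM in the libraries labelled Foxp1cKO, both above all controls. Its log2 fold change was 0.51, and it was the gene of the list with an unadjusted p-value under 0.05. Axin2, a feedback inhibitor induced by canonical Wnt signalling, had 42.9, 39.9, 28.5 and 49.6 CPM in controls 1 to 4, and 45.4 and 42.2 CPM in the libraries labelled Foxp1cKO, inside the Control range. Other BMP ligands had a median of 0.18 (6 of 9), BMP antagonists of -0.20 (9 of 10), and Smads and BMP targets of -0.062 over all 13, of which Smad7, an inhibitory Smad, passed in DESeq2 alone (8.24 to 10.2 CPM in the controls, 12.3 and 13.7 CPM in the libraries labelled Foxp1cKO). The Control SD had a median of 0.42 over the Wnt targets.

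**Figure D5:**
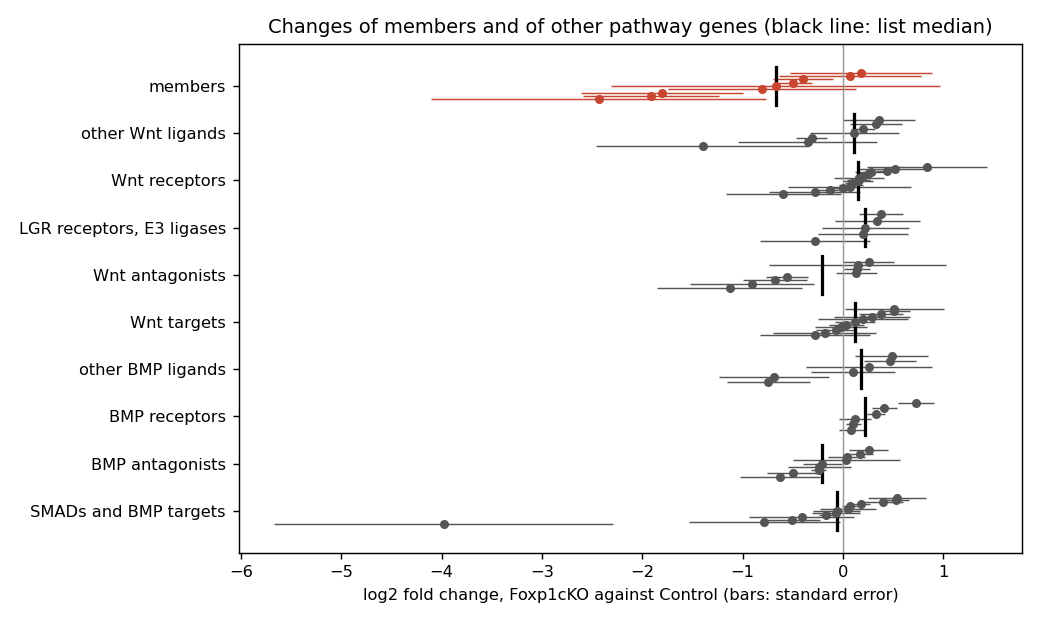
Log2 fold change of each gene between Foxp1cKO and Control libraries from edgeR, with its standard error, by list; the 9 genes are red and the black line is the median of each list. The medians are -0.67 for the 9 genes, 0.15 for the Wnt receptors and 0.23 for the BMP receptors. The point near -4 is Msx2, which had 1 count in each Foxp1cKO library.

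Of 15058 other genes with a mean of at least 0.5 CPM, those closest to the mean profile of the 9 over the 6 libraries were 2610035F20Rik, Gm13456, Prrg4, Loxl1, Fgf2, Optc, Ubxn10, Nfam1, AW047730 and Dtx3l, with RMS differences of 0.326 to 0.393. They include Loxl1, a crosslinker of elastic fibres, and Fgf2, a growth factor of cortical progenitors. Single genes of the 9 had closer partners, named here after their values were seen. Rspo1 was most like Fgf17, a growth factor of the rostral midline (RMS 0.556), which had 7.77 CPM in control 2 and 0.339 to 0.556 CPM in the other 5 libraries. Bmp4 was near Col1a2 (0.190) and Col1a1 (0.212). Bmp7 was nearest to Tfap2b (0.262), Ms4a6b (0.363) and Twist1 (0.394), and Tfap2b had 0.178 CPM in control 3 and 1.23 to 2.29 CPM elsewhere. Wnt5a was nearest to Actn3 (0.0622) and, next, Sfrp4 (0.0744). Wnt8b, which had the largest Control SD of the 9, had no partner closer than 1.51 on this unscaled measure.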

How the data were processed

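Total RNA from lateral cortex was sequenced as stranded, paired-end libraries. The authors used STAR to align reads to mm10 and HTSeq 0.9.1 in union mode to count them, and removed genes with few counts. The deposited table holds raw, unnormalized counts. The authors also deposited variance-stabilized values on a log2-like scale, which equal DESeq2's blind transformation of the counts within 1.1e-10.

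Counts were analysed in R 4.3.3 with edgeR 4.0.16 (quasi-likelihood test, TMM, group alone, Benjamini-Hochberg adjustment over 17068 genes, threshold 0.05); the litter the authors modelled is not in the labels and was not used. Log2 CPM used a prior count of 2. DESeq2 1.42.0, limma 3.58.1 on the deposited values, other scalings, a low-count filter, a replicate block and each library left out were alternatives. Symbols, positions and exon lengths came from GENCODE M21 (GRCm38), which matched 17047 of 17068 identifiers. Scripts were tested on simulated data.

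No pair of libraries agreed within sampling noise (chi-square per gene from 25.9 to 193 among controls, 31.4 within Foxp1cKO). The labels name no litter, so p-values measure the spread between these libraries only. Poisson intervals (95%) and floors cover counting error only, since PCR reads are not independent molecules. With 4 libraries against 2, an exact rank-sum test cannot give a two-sided p below 0.133, and no permutation test was used. The genes and lists were chosen with earlier results of these data known. Genes named are the 9 genes, Foxp1, genes of the lists (the highest per length, up to 3 largest changes in each direction, all that passed, all not in the table) and the 10 genes nearest to the mean profile; others, including Axin2, the medial regulators, Col1a1, Nkx2-1 and the partners of single genes, were named after their values were seen. The list of general cortex markers is not reported here.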

Additional observations from a re-analysis of the deposited data

Results flagged for a closer look

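Among the 9 genes, 2 had a Control library whose gap to its nearest neighbour, as a share of the Control range in log2 CPM, exceeded Dixon's 95% critical value for 4 samples. For Lmx1a, control 4 was apart from the others at 2.79 CPM (gap 0.832 of the range), and for Bmp7, control 3 was apart at 1.29 CPM (gap 0.916 of the range). Chance flags about 1 in 20 groups, but these genes were chosen with their values known, so both gaps are a description and not a test. On the CPM scale, Rspo1 in control 2 also exceeded the critical value (0.937), Lmx1a in control 4 again did (0.922), and Bmp7 in control 3 did not (0.811).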

How the results depend on the processing

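None of the 9 genes passed an adjusted p-value under 0.05 in any setting tried. Over all genes, 26 passed in edgeR and 507 in DESeq2, 0 with a replicate block (3027 at an unadjusted p-value under 0.05), 2 to 96 without 1 library, and 3 without controls 1 and 3, an alternative chosen after seeing the data because control 1 was the highest for fibroblast collagens and control 3 for Nkx2-1. The lowest of these leave-one-out counts came without control 2 (2) and the highest without control 4 (96), with 6 without control 1, 9 and 3 without the libraries labelled Foxp1cKO 1 and 2; the cause was not tested. Replicate numbers 1 and 2 occur in both groups, and between libraries sharing a number the deviations correlated at -0.0975. That value cannot decide whether the numbers pair the embryos, because the departures of 2 libraries from their own mean mirror each other. The labels name no litters, so any pairing remains unknown.

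The sign of the log2 fold change was the same in all 13 alternatives for Wnt2b, Wnt5a, Rspo2, Rspo3 and Bmp4, and turned in 2 for Wnt8b, 1 for Rspo1, 5 for Lmx1a and 4 for Bmp7. Between 2 and 5 of the 9 genes had a difference above the Control SD, with 5 when control 3 was left out. On the deposited log2-like values, which shrink low counts, the Control SD of Wnt8b was 1.06 and that of Rspo1 0.874, and the differences were smaller too, at -0.27 for Wnt2b, -0.45 for Rspo2 and -0.39 for Rspo1. Wnt2b rests on 6 to 41 counts per library.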
